A study of Rattus norvegicus with 12 samples.

Results

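Osteopontin (Spp1), Gpnmb and 8 genes that macrophages often express with them (Lgals3, Mmp12, Ctsk, Trem2, Cd9, Cd63, Fabp5 and Atp6v0d2) were followed in the pubocaudalis, a muscle of the rat pelvic floor. The members were taken by gene symbol: 10 of the 30206 genes in the count table carried one of these symbols, and 9 of the 10 passed the low-count filter that left 14599 genes for testing. The members were chosen by symbol, with no threshold on a value, but with the CPM and the fold changes between lactating and non-lactating rats in these libraries already known, so their values in every comparison of these libraries are given as a description and without a p-value. Female Sprague-Dawley rats, 3 months old, underwent simulated birth injury (SBI), a vaginal balloon distention performed in late pregnancy. Non-lactating rats had their pups removed after delivery (1wk SBI and 3wk SBI, killed 1 week and 3 weeks after injury), and lactating rats kept them (1wk SBI + Lac and 3wk SBI + Lac). All 4 groups thus shared pregnancy and injury, and no uninjured group was sequenced in the 12 libraries analysed here. Each group had 3 libraries and each library held the RNA of 2 rats. The labels name different rats for each pool, while the legend of the study calls the pools technical replicates, so the spread between libraries measures the spread between pools and not between single rats.

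Macrophages that enter injured muscle first clear debris and then turn to repair, and a state that handles lipid and dead-cell material is recognised in many injured tissues by high Spp1, Gpnmb, Trem2, Cd9, Fabp5 and cathepsins. Osteopontin is a secreted phosphoprotein that binds integrins and Cd44. Gpnmb is a transmembrane glycoprotein of lysosomes and the cell surface whose shed part binds syndecan-4 and Cd44. Several members, among them Spp1, Cd9, Cd63 and Lgals3, are also made by other cells such as fibroblasts and myoblasts. In whole muscle the transcripts of the members thus need not come from macrophages alone. In such bulk RNA, fewer cells of a type and less RNA per cell cannot be told apart.

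The libraries held between 10082734 and 75634391 counts. The level of a gene is stated in normalized CPM, its count relative to the library total after scaling by the trimmed mean of M values. These values allow a gene to be compared between libraries but not 1 gene with another, since gene length was not taken into account. The libraries carried the markers of muscle, with 6 genes of mature fibers summing to 69207 to 178806 CPM. The 20 general macrophage markers were all detected in each group and summed to 456 to 1110 CPM. Replicate 3 of 3wk SBI stood apart, with a macrophage marker sum of 1110 CPM beside 521 and 532 CPM in the other libraries of its group and a fibroblast marker sum of 6873 CPM beside 3035 and 2948 CPM. Milk protein genes, among them Csn1s1 and Csn1s2a, summed to 0 CPM in each 1wk SBI library and to at most 0.0120 CPM in 3wk SBI, and to between 0.330 and 39.4 CPM in the lactating libraries. Their part in the values below was not tested.

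The ligands Spp1 and Gpnmb were lower in lactating rats at both time points, with no overlap between the libraries of the groups. In 1wk SBI, Spp1 stood at 28.3, 56.3 and 28.7 normalized CPM in the 3 libraries (37.8 ± 16.1, mean ± SD, n = 3), and in 1wk SBI + Lac at 4.52, 3.53 and 5.90 (4.65 ± 1.19). At 3 weeks it stood at 5.26, 10.7 and 3.76 normalized CPM in 3wk SBI (6.55 ± 3.63) and at 1.95, 1.64 and 2.09 in 3wk SBI + Lac (1.89 ± 0.229). Every non-lactating library was thus above every lactating library of its time point. The 1wk SBI + Lac libraries lay within the range of 3wk SBI or just under it. Counts at 1 week were whole and those at 3 weeks estimated, so this comparison across times mixes time with the way the counts were made. The log2 fold change with lactation was -3.01 ± 0.39 (SE) at 1 week, an 8.07-fold lower level, and -1.79 ± 0.45 at 3 weeks, a 3.45-fold lower level.

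Gpnmb was measured with more counts, and its SD was a smaller share of the mean than that of Spp1 in each group but 3wk SBI + Lac. Its normalized CPM were 135, 215 and 133 in 1wk SBI (161 ± 46.9, n = 3) and 45.4, 53.6 and 57.9 in 1wk SBI + Lac (52.3 ± 6.35). At 3 weeks they were 46.8, 60.2 and 61.7 in 3wk SBI (56.2 ± 8.22) and 23.7, 26.3 and 16.0 in 3wk SBI + Lac (22.0 ± 5.33). The lactating libraries at 1 week thus overlapped with the non-lactating libraries at 3 weeks, a comparison across times with the same limit as for Spp1. The log2 fold change with lactation was -1.62 ± 0.21 at 1 week (3.07-fold lower) and -1.33 ± 0.21 at 3 weeks (2.52-fold lower). Replicate 2 of 1wk SBI was the highest library for both ligands. Without it the log2 fold changes at 1 week were -2.61 for Spp1 and -1.35 for Gpnmb.

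Lgals3 encodes galectin-3, a sugar-binding lectin of phagocytes, and it moved less than the other ligands. Its normalized CPM were 60.0, 58.2 and 41.5 in 1wk SBI and 37.4, 28.6 and 37.6 in 1wk SBI + Lac, which did not overlap (log2 fold change -0.63 ± 0.19). At 3 weeks the ranges of 21.3 to 33.3 in 3wk SBI and 18.2 to 27.3 in 3wk SBI + Lac overlapped (log2 fold change -0.18 ± 0.20).

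**Figure D1:**
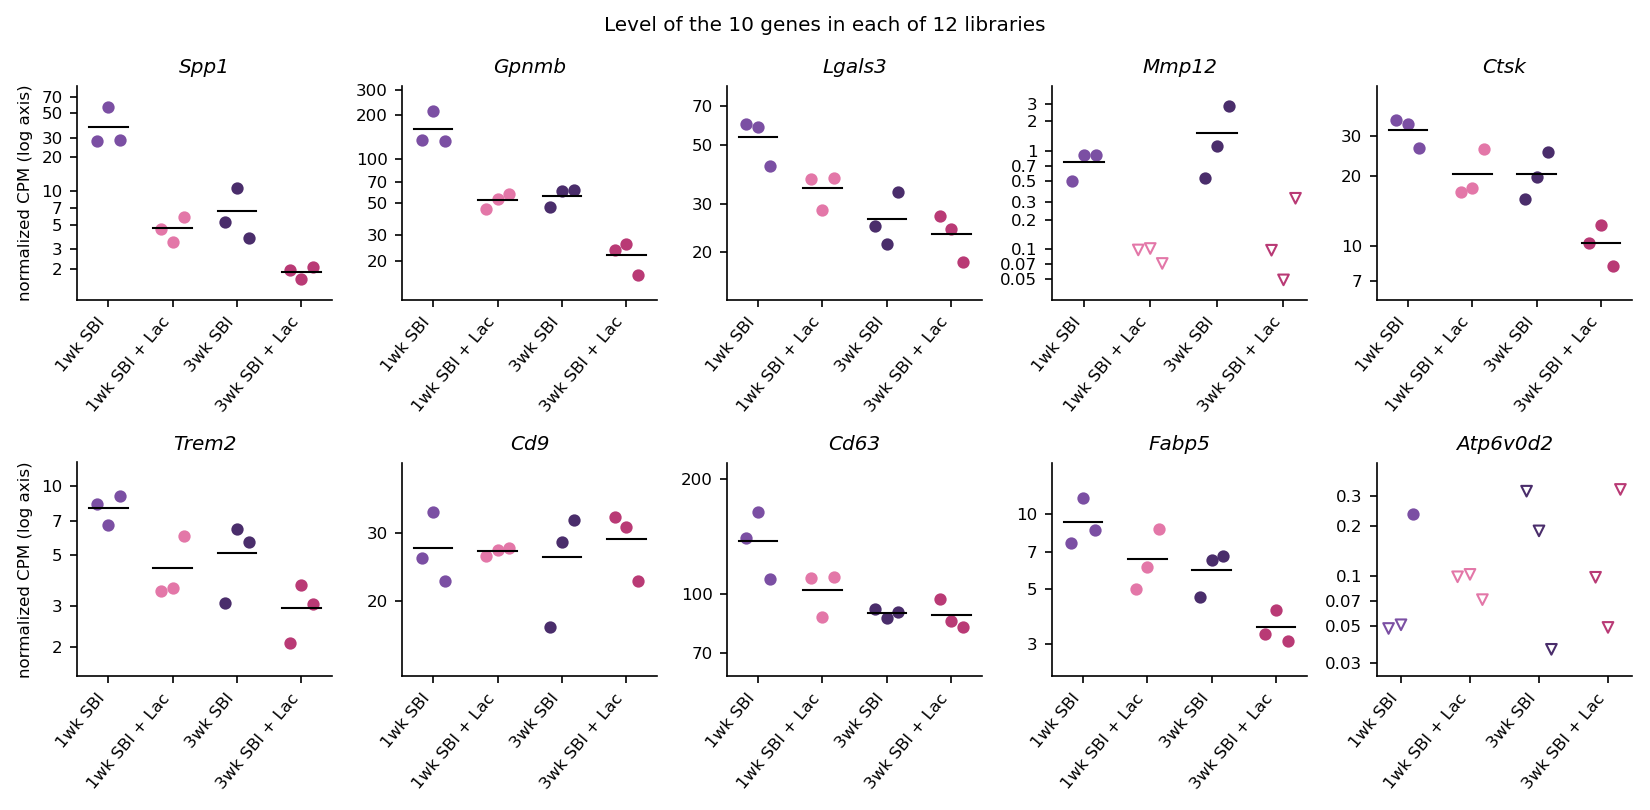
Normalized CPM (log axis, a different range in each panel) of the 10 genes in each of the 12 libraries, 3 per group. Filled points are libraries with more than 3 counts, open triangles mark the limit that 3 counts set in libraries at or under 3 counts, and bars are group means where all 3 libraries were above the limit. Spp1, Gpnmb and Mmp12 separate lactating from non-lactating libraries at both time points, while Cd9 overlaps at both.

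Gpnmb and several lysosomal genes are known targets of the MiT/TFE transcription factors, so the bases before the start of each member were searched for the letters of 4 motifs. A RefSeq promoter on GRCr8 was matched for 7 of the 10 members (Spp1, Gpnmb, Mmp12, Ctsk, Trem2, Cd9 and Cd63), and the 250 bases before the annotated start were read on both strands. The promoters of the 2 ligands are shown because their transcripts differed between lactating and non-lactating libraries at both times while their motif letters differ. Capitals mark any match to the M-box TCATGTG (reverse CACATGA), the E-box CACGTG, the AP-1 site TGANTCA or the PU.1 site GAGGAA (reverse TTCCTC), and none of the matches overlap.
Gpnmb promoter, GRCr8 chr4:79340878-79341127, plus strand: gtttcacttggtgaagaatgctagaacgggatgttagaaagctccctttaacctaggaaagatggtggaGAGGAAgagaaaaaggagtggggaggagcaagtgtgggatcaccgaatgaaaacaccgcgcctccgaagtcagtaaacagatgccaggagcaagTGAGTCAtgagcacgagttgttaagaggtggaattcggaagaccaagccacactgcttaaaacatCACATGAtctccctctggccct
Spp1 promoter, GRCr8 chr14:5619805-5620054, minus strand: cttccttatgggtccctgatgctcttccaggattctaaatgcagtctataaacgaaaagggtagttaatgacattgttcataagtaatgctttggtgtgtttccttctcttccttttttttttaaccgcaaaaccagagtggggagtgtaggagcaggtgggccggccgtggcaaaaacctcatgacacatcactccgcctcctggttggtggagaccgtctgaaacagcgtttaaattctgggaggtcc

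The Gpnmb promoter held an M-box as CACATGA at 22 to 16 bases before the start, an AP-1 site at 87 to 81 bases and a PU.1 site at 181 to 176 bases. The Spp1 window held none of the 4 motifs. Among 33469 rat promoters of the same length, 3.07% held the M-box, 5.59% the E-box, 6.34% the AP-1 site and 23.3% the PU.1 site. Of the 7 members with a promoter, 3 held the M-box (Gpnmb, Ctsk and Cd63), 2 the E-box (Mmp12 and Cd63), 3 the AP-1 site (Gpnmb, Mmp12 and Cd63) and 5 the PU.1 site (Gpnmb, Ctsk, Trem2, Cd9 and Cd63). A match is a run of letters and not a measured binding site.

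**Figure D2:**
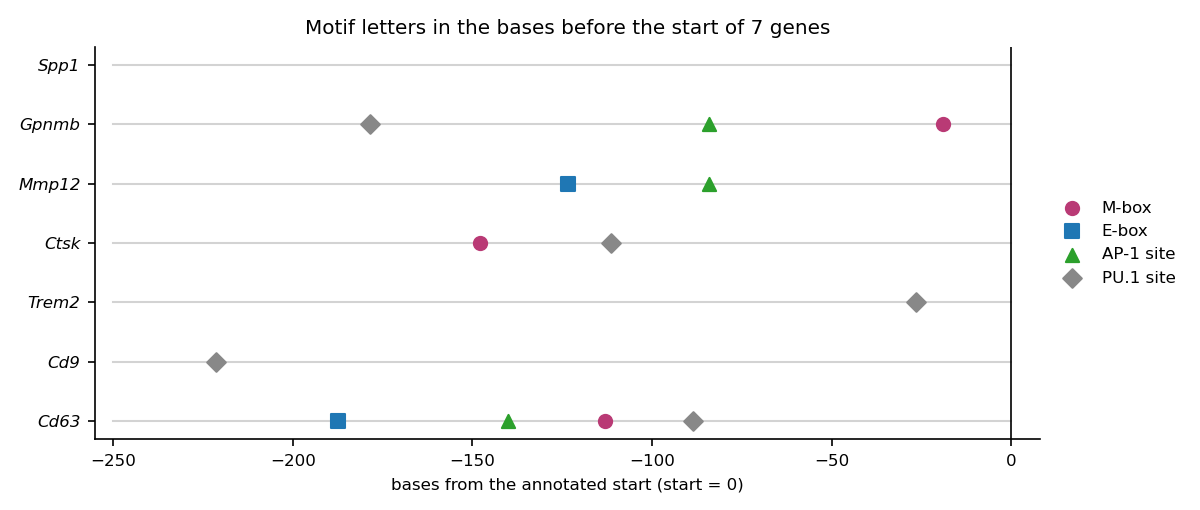
Position of each motif match in the 250 bases before the annotated start (start = 0) of the 7 members with a RefSeq promoter, drawn to scale on GRCr8. Points are match centres and each marker is 1 motif. Cd63 holds all 4 motifs and Spp1 none, and the AP-1 site lies at the same distance in Gpnmb and Mmp12, 87 to 81 bases before the start.

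Among the proteases, Mmp12 exceeded 3 counts in each of the 6 non-lactating libraries and in none of the 6 lactating ones. Mmp12 encodes macrophage metalloelastase, a matrix protease that degrades elastin. Its raw counts were 31, 54 and 39 in 1wk SBI (0.497, 0.911 and 0.914 normalized CPM) and 3, 0 and 0 in 1wk SBI + Lac. At 3 weeks the counts were 5, 18 and 239 in 3wk SBI (0.536, 1.11 and 2.87 normalized CPM) and 0, 3 and 0 in 3wk SBI + Lac. All 6 lactating libraries were therefore at or under 3 counts, the limit used here for a count of 0, which stood at 0.0717 to 0.102 normalized CPM at 1 week and 0.0488 to 0.330 at 3 weeks and lay below each non-lactating library. Summed over a group and scaled to library size, the ratio was 25.6 at 1 week (124 against 3 counts, exact binomial 95% interval 8.56 to 126) and 81.3 at 3 weeks (262 against 3 counts, 27.5 to 397). A fitted fold change of so rare a transcript (-4.55 ± 0.96 at 1 week and -5.72 ± 0.98 at 3 weeks on the log2 scale) depends on the prior count and is no bound. The intervals cover counting error only, and 239 of the 262 counts came from replicate 3 of 3wk SBI, the library with the highest macrophage marker sum.

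Ctsk encodes cathepsin K, a lysosomal collagenase best known from osteoclasts, and it was lower with lactation at both times. Its normalized CPM were 35.2, 33.8 and 26.5 in 1wk SBI and 17.1, 17.7 and 26.3 in 1wk SBI + Lac, so the groups were separated by a narrow margin (log2 fold change -0.64 ± 0.20). At 3 weeks they were 15.9, 19.8 and 25.4 in 3wk SBI and 10.3, 12.3 and 8.13 in 3wk SBI + Lac, where the change was -0.98 ± 0.21. Both protease promoters are shown, since Ctsk shares the M-box and Mmp12 the AP-1 site with Gpnmb.
Ctsk promoter, GRCr8 chr2:185747298-185747547, plus strand: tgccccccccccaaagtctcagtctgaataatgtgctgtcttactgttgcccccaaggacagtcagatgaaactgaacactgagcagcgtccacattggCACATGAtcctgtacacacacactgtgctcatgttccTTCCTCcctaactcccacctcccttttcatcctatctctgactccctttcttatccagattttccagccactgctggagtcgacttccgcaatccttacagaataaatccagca
Mmp12 promoter, GRCr8 chr8:12866402-12866651, plus strand: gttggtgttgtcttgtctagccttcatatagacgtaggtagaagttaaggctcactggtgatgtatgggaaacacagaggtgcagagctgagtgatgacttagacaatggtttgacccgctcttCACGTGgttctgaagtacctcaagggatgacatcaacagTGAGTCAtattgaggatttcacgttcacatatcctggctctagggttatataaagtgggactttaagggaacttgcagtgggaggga

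The M-box of Ctsk also read CACATGA and lay 151 to 145 bases before the start, and its PU.1 site lay at 114 to 109 bases. In Mmp12 the AP-1 site read TGAGTCA, the same letters as in Gpnmb, and the E-box lay at 126 to 121 bases.

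Of the receptor and the tetraspanins, Trem2 was lower with lactation at 1 week and the groups overlapped for Cd9 at both times. Trem2, a receptor for lipids and apoptotic cells that signals through the adaptor Tyrobp, stood at 8.30, 6.75 and 9.00 normalized CPM in 1wk SBI and at 3.48, 3.59 and 6.04 in 1wk SBI + Lac (log2 fold change -0.86 ± 0.27). At 3 weeks the change was nearly as large, -0.82 ± 0.30, but 3.11, 6.50 and 5.68 in 3wk SBI overlapped with 2.08, 3.69 and 3.08 in 3wk SBI + Lac. Cd9, a tetraspanin of the plasma membrane, ranged from 17.1 to 34.1 normalized CPM over all 12 libraries, and its log2 fold change with lactation was -0.03 ± 0.21 at 1 week and 0.14 ± 0.21 at 3 weeks. Cd63, a tetraspanin of late endosomes and lysosomes, ranged from 109.3 to 164 in 1wk SBI and from 87.0 to 111 in 1wk SBI + Lac, which overlapped (log2 fold change -0.43 ± 0.14). At 3 weeks Cd63 differed by -0.02 ± 0.14. Its promoter is shown because it was the window with all 4 motifs, in a gene whose groups overlapped.
Cd63 promoter, GRCr8 chr7:1921894-1922143, plus strand: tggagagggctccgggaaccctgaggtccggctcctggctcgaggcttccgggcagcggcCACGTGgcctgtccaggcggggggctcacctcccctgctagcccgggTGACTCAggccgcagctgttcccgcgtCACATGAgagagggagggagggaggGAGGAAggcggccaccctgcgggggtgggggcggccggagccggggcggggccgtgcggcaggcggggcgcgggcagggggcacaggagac

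Fabp5, a cytosolic fatty acid carrier, was separated between the groups at 3 weeks and not at 1 week. Its normalized CPM ranged from 7.64 to 11.6 in 1wk SBI and from 4.98 to 8.72 in 1wk SBI + Lac (log2 fold change -0.49 ± 0.22), and from 4.61 to 6.79 in 3wk SBI and from 3.08 to 4.10 in 3wk SBI + Lac (-0.77 ± 0.24). Atp6v0d2, a subunit of the vacuolar proton pump of osteoclasts and fused macrophages, was near its detection limit and was not tested. At 1 week the non-lactating libraries had 0, 2 and 10 raw counts of it and the lactating libraries had 0 each. At 3 weeks the non-lactating libraries had 0, 2 and 3 and the lactating ones 0, 0 and 1, so 1 of 12 libraries exceeded 3 counts and no fold is given.

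Across the members, 9 of the 9 tested had a log2 fold change below 0 with lactation at 1 week (50.5% of all genes tested) and 8 of 9 at 3 weeks (52.3%). The median was -0.64 at 1 week beside -0.0038 over all genes, and -0.82 at 3 weeks beside -0.02. For 6 members no lactating library reached a non-lactating one at 1 week (Spp1, Gpnmb, Lgals3, Mmp12, Ctsk and Trem2), beside 14.1% of all genes that were lower without overlap. At 3 weeks 5 members did not overlap (Spp1, Gpnmb, Mmp12, Ctsk and Fabp5), beside 10.4%. Spp1, Gpnmb, Mmp12 and Ctsk were lower without overlap at both times, as were 3.24% of all genes (473 of 14599). These shares give the background only, since the set was chosen with the contrasts known.

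A gene was called when its adjusted p was under 0.05 and its log2 fold change over 1 in size (edgeR quasi-likelihood test). For the members this is a description and no test, since these contrasts were known when they were chosen. By that rule 3 members were past both at 1 week (Spp1, Gpnmb and Mmp12), beside 0.253% of all genes in either direction and 0.164% lower. Mmp12 had more than 3 counts in the non-lactating libraries alone, so it entered the fit through the groups where it is high. At 3 weeks 2 members were past both (Gpnmb and Mmp12), beside 0.740% in either direction and 0.534% lower. The counts depended on single libraries. Without replicate 1 of 1wk SBI + Lac no member was past both cutoffs at 1 week (log2 fold changes of -2.99 for Spp1 and -1.53 for Gpnmb), and without replicate 2 of that group Gpnmb alone was, with Spp1 at -2.85. Mmp12 kept its call at 1 week in 1 of 6 fits that each left out 1 library, with log2 fold changes of -7.97 to -3.87. Without replicate 3 of 3wk SBI, the library that stood apart, the 3-week changes were -2.17 for Spp1, -1.25 for Gpnmb, -4.78 for Mmp12 and -0.77 for Ctsk, and Gpnmb alone was past both cutoffs. Gpnmb was also the only member past them at 3 weeks without replicate 1 of 3wk SBI + Lac, where Mmp12 had -5.21.

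**Figure D3:**
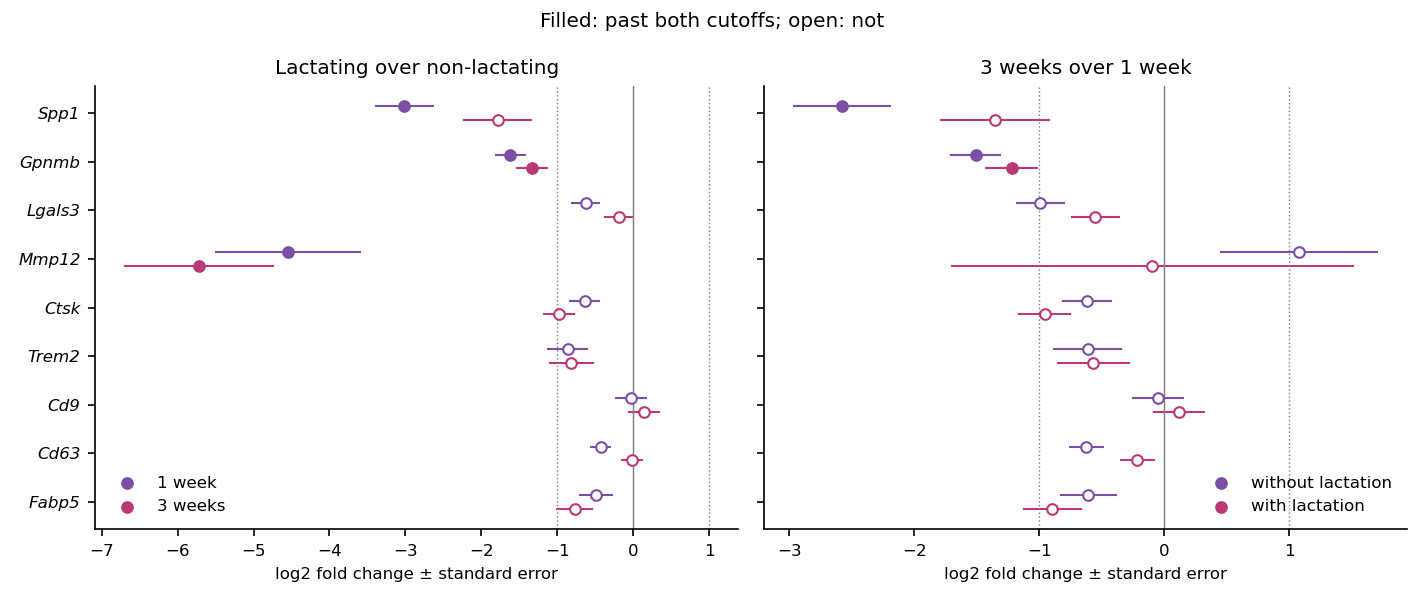
Log2 fold change ± standard error (horizontal axis) of the 9 tested members, for lactating over non-lactating rats on the left and for 3 weeks over 1 week on the right. Filled points are past both cutoffs and open points are not, and dotted lines mark a log2 fold change of 1 in either direction. Spp1, Gpnmb and Mmp12 lie farthest to the left with lactation at 1 week (-3.01, -1.62 and -4.55).

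The lactation effects at the 2 times were also set against each other, again as a description. In the edgeR fit 0 of 9 members were past both cutoffs for the difference of the effects. An unadjusted p under 0.05 was found for 0 of 9, beside 645 of the 14599 genes tested. Beside a background this low, 0 of 9 is not read as a result about the members. The DESeq2 fit also called 0 members. The largest positive difference was that of Spp1, whose lactation effect was smaller at 3 weeks by 1.23 ± 0.59 on the log2 scale. For Gpnmb the difference was 0.29 ± 0.29, and for Trem2 0.05 ± 0.40. In all genes, 0.00685% passed both cutoffs, which is 1 gene.

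Between 1 week and 3 weeks without lactation, Spp1 and Gpnmb were lower at the later time. Spp1 had a log2 fold change of -2.58 ± 0.39 and Gpnmb of -1.51 ± 0.21, and these 2 members were past both cutoffs, beside 1.46% of all genes in either direction and 1.10% lower. Lgals3 (-0.99 ± 0.19) and Cd63 (-0.62 ± 0.14) had changes under the fold cutoff. Mmp12 had the opposite sign, with a log2 fold change of 1.08 ± 0.63 that was not past the cutoffs. Without replicate 3 of 3wk SBI that value was 0.14. Cd9 differed by -0.05 ± 0.21. In 7 members the 3-week libraries were lower without overlap, beside 11.4% of all genes.

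With lactation, Gpnmb had a log2 fold change of -1.22 ± 0.21 between 1 week and 3 weeks and was the 1 member past both cutoffs, beside 0.774% of all genes in either direction and 0.685% lower. It lost that call without replicate 3 of 1wk SBI + Lac (-1.14) and without replicate 1 of 3wk SBI + Lac (-1.26). Ctsk had a log2 fold change of -0.96 ± 0.21, just under the fold cutoff. Spp1 had -1.35 ± 0.44 and Fabp5 -0.90 ± 0.24, neither past both cutoffs. In 5 members the libraries did not overlap, all lower at 3 weeks, beside 14.7% of all genes. Time and the way the counts were made cannot be told apart in these comparisons: the 3-week columns hold estimated counts, and 30 genes, 0 of them members, were without a count at 1 week but had 100 or more at 3 weeks.

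Most macrophage markers had log2 fold changes below 0 with lactation. Of 19 tested, 0 were past both cutoffs at 1 week and 1 at 3 weeks, beside 0.253% and 0.740% of all genes. Each member was also set against these markers in the same library. The mean log2 CPM of 19 tested macrophage markers differed with lactation by -0.46 at 1 week, without overlap, and by -0.38 at 3 weeks, with overlap. This mean weighs its markers alike, although they differed among themselves, with Cd68 at -0.96 and Lyve1 at 0.55 at 1 week. Values relative to it thus depend on the markers listed. Relative to that mean, Spp1 differed by -2.50 on the log2 scale at 1 week, from 0.55 ± 0.49 to -1.95 ± 0.09 (SD, n = 3), and the libraries did not overlap. At 3 weeks it differed by -1.26 and the libraries overlapped. Replicate 3 of 3wk SBI combined the lowest Spp1 of its group with the highest macrophage sum. Gpnmb differed by -1.13 at 1 week (2.68 ± 0.32 against 1.55 ± 0.31) and by -0.99 at 3 weeks (1.44 ± 0.50 against 0.45 ± 0.24), without overlap at either time.

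Most other members overlapped between the groups when set against the markers. Many had also overlapped in normalized CPM: Cd9 and Cd63 at both times, Fabp5 at 1 week, and Lgals3 and Trem2 at 3 weeks. Ctsk differed by -0.20 relative to them at 1 week with overlap and by -0.61 at 3 weeks without. Trem2 (-0.44 and -0.37), Fabp5 (-0.04 and -0.38), Lgals3 (-0.16 and 0.19) and Cd63 (0.05 and 0.35) overlapped at both times. Cd9 was higher relative to the markers in the lactating groups by 0.45 and 0.56, again with overlap. Mmp12 stayed below the markers in the lactating groups by more than in the non-lactating ones at both times, but its lactating values rest on the prior count of 2 added before the logarithm.

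**Figure D4:**
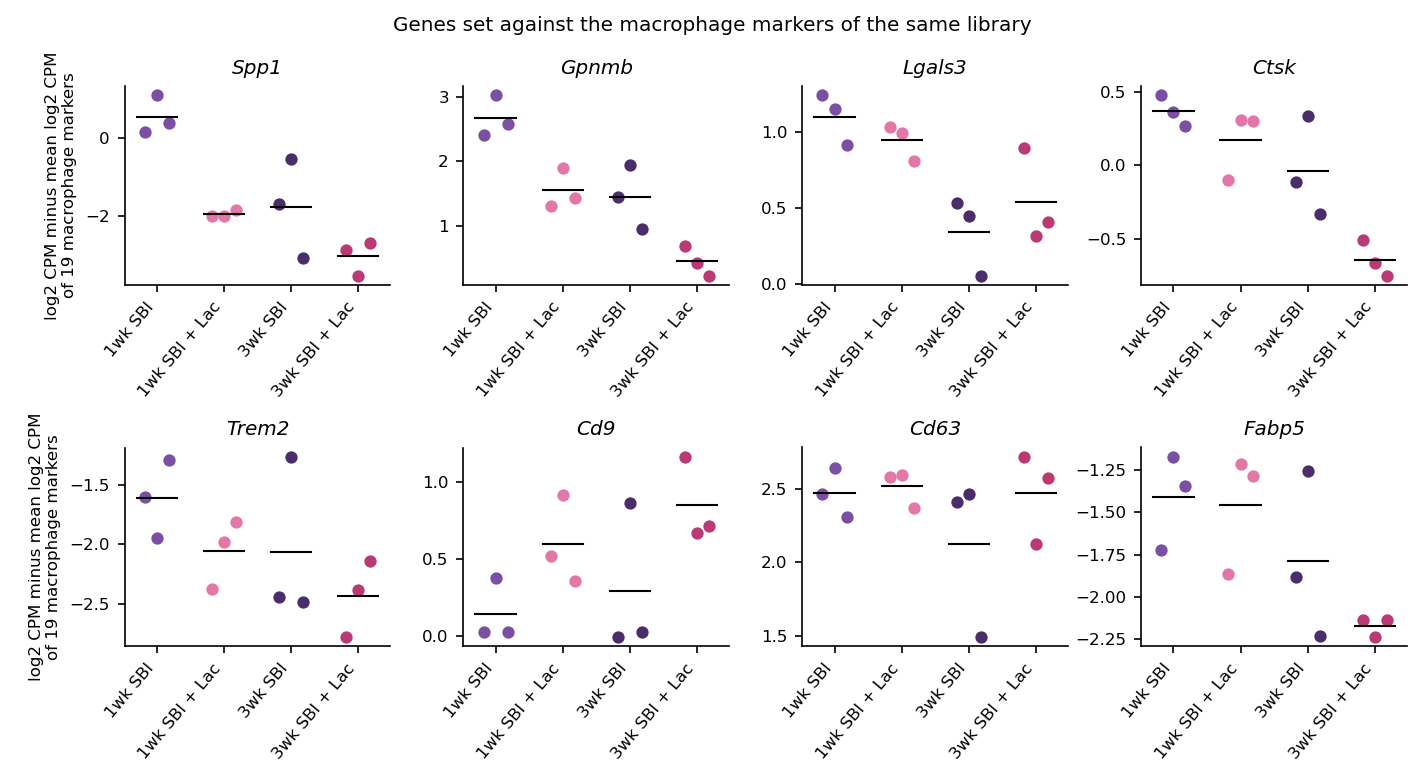
Log2 CPM of 8 members minus the mean log2 CPM of 19 macrophage markers in the same library (vertical axis, log2 units, a different range in each panel), by group. Points are the 3 libraries of a group and bars their means. Gpnmb stays separated between lactating and non-lactating libraries at both times, Spp1 at 1 week, and Cd63 and Lgals3 overlap.

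The receptors and signaling partners of the members were looked at in the same contrasts. Of 10 surface receptors for osteopontin or Gpnmb, 0 were past both cutoffs in either lactation contrast. Of all genes, 0.253% were past both at 1 week and 0.740% at 3 weeks. Beside shares this small, a count of 0 in a short list is not read as a result. Cd44, the hyaluronan receptor that binds osteopontin, had log2 fold changes of -0.60 ± 0.19 at 1 week (edgeR adjusted p = 0.115) and -0.47 ± 0.20 at 3 weeks (edgeR adjusted p = 0.191). The integrin chains Itgav (-0.17 and -0.08) and Itgb3 (-0.41 and -0.46) did not pass either, nor did Itga9 at 1 week (-0.74 ± 0.25, edgeR adjusted p = 0.135). At 3 weeks Itga4, a chain that binds osteopontin, passed the p cutoff alone (-0.59 ± 0.13, edgeR adjusted p = 0.0296), and Sdc4, the syndecan that binds Gpnmb, had 0.52 ± 0.15 (edgeR adjusted p = 0.0791). All 9 tested genes of Trem2 signaling were below 0 at both times, with medians of -0.66 and -0.69 and 0 past the cutoffs. The adaptor Tyrobp had -0.72 ± 0.30 at 1 week and -0.72 ± 0.32 at 3 weeks (edgeR adjusted p = 0.216 and 0.213), and the phosphatase Inpp5d -0.84 ± 0.22 and -0.75 ± 0.23 (edgeR adjusted p = 0.0733 and 0.0892). The shedding enzyme Adam17 had -0.31 ± 0.11 at 1 week (edgeR adjusted p = 0.137) and Ms4a7 -1.38 ± 0.46 at 3 weeks (edgeR adjusted p = 0.107).

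Of 21 further genes of lipid-handling macrophages, 15 were below 0 at 1 week and 14 at 3 weeks (medians -0.33 and -0.34). Past both cutoffs were 0 at either time, beside 0.253% and 0.740% of all genes. The cholesterol exporters Abcg1 (-1.05 ± 0.23, edgeR adjusted p = 0.0556) and Abca1 (-0.56 ± 0.13, edgeR adjusted p = 0.0590) were nearest at 1 week. At 3 weeks Abca1 (-0.68 ± 0.13, edgeR adjusted p = 0.0174) passed the p cutoff with a change under the fold cutoff. Nr1h3, the oxysterol receptor that drives both exporters, had the opposite sign at both times, with 0.45 ± 0.13 at 1 week (edgeR adjusted p = 0.103) and 0.84 ± 0.14 at 3 weeks (edgeR adjusted p = 0.00934). Of 12 tested genes known from osteoclasts and fused macrophages, 10 and 8 were below 0 and 0 were past both cutoffs, beside the same shares. The cells that made these transcripts in whole muscle were not identified. Mmp9, a gelatinase, had -3.71 ± 0.87 at 1 week (edgeR adjusted p = 0.0591), on 113 counts over 1wk SBI and 5 over 1wk SBI + Lac. The calcitonin receptor Calcr had -1.57 ± 0.44 at 3 weeks (edgeR adjusted p = 0.0693). The proton pump subunit Tcirg1 (-0.52 ± 0.13 at 1 week) and the receptor Siglec15 (-2.74 ± 1.06 at 3 weeks) did not pass either. Siglec15 had 30 counts over 3wk SBI and 3 over 3wk SBI + Lac. Its highest 3wk SBI library stood at 0.348 CPM beside a group median of 0.0619. As for Mmp12, fitted fold changes of Mmp9 and Siglec15 depend on the prior count and are no bound. The fusion gene Dcstamp was at 0 counts in 3 of the 4 groups. The MiT/TFE factors Mitf, Tfeb, Tfe3 and Tfec, which recognise the M-box and E-box letters, had medians of 0.03 and 0.13 and differed in sign. Mitf had 0.32 ± 0.12 and 0.04 ± 0.12, Tfeb 0.15 ± 0.10 and 0.23 ± 0.10, Tfe3 -0.08 ± 0.11 and 0.22 ± 0.11, and Tfec -0.39 ± 0.32 and -0.55 ± 0.34 at 1 week and 3 weeks, none past a cutoff.

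Among general macrophage markers, Cd68 was the exception. This lysosomal glycoprotein fell with lactation at 3 weeks (-1.08 ± 0.20, edgeR adjusted p = 0.0150) and had -0.96 ± 0.19 at 1 week (edgeR adjusted p = 0.0417), just under the fold cutoff. Csf1r, the receptor for the macrophage growth factor, had -0.31 ± 0.22 and -0.45 ± 0.22 (edgeR adjusted p = 0.461 and 0.269), and Aif1 -0.95 ± 0.29 at 1 week (edgeR adjusted p = 0.108). Lyve1, a marker of resident macrophages, had the opposite sign at both times (0.55 ± 0.18 and 0.49 ± 0.19, edgeR adjusted p = 0.119 and 0.149), higher without overlap, and the scavenger receptor Cd163 had 0.19 ± 0.22 at 1 week. Both were named after their values were seen. In all, 17 of 19 markers were below 0 at 1 week (median -0.47) and 18 of 19 at 3 weeks (-0.45). Over all the companion lists, 0 of 124 tested genes were past both cutoffs at 1 week in edgeR, beside 0.253% of all genes. Of the 124, 49 had an unadjusted p under 0.05, beside 2762 of the 14599 genes. The DESeq2 fit called 10, beside 188 of all genes. At 3 weeks 3 of 124 were past both cutoffs in edgeR (Cd68, Cd8b and Flt3), beside 0.740% of all genes. Without replicate 3 of 3wk SBI 0 were.

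Most markers of regenerating fibers (6 of 7 at both times) and all 8 of fibroblasts had log2 fold changes below 0 with lactation. None was past both cutoffs, beside 0.253% of all genes at 1 week and 0.740% at 3 weeks. The summed level of 7 regeneration genes was 1358 to 3296 CPM in 1wk SBI and 718 to 1170 in 1wk SBI + Lac, and 227 to 736 in 3wk SBI and 174 to 212 in 3wk SBI + Lac, without overlap at either time. None of the genes was at 0 in a group. The myogenic factor Myod1, named after its values were seen, had 0.04 ± 0.15 at 1 week and 0.24 ± 0.16 at 3 weeks. The satellite cell factor Pax7 had -1.03 ± 0.29 and -1.20 ± 0.31 (edgeR adjusted p = 0.0905 and 0.0543), Mymk, a gene of myoblast fusion, had -1.75 ± 0.46 at 1 week and embryonic myosin Myh3 -1.77 ± 0.56 at 3 weeks. The summed level of 8 fibroblast genes was 6198 to 9010 CPM and 3646 to 6871 CPM at 1 week, and 2948 to 6873 CPM and 1778 to 2580 CPM at 3 weeks, with none at 0, and the groups overlapped at 1 week. Thy1 (-0.86 ± 0.38) and Lum (-0.55 ± 0.26) had the smallest adjusted p at 1 week, and Fap (-1.08 ± 0.29) and Col3a1 (-1.06 ± 0.33) at 3 weeks. Most mature fiber genes had the opposite sign, with medians of 0.54 and 0.41 over 6 genes. Below 0 were 0 of 6 at 1 week and 1 of 6 at 3 weeks. Of the 6, 0 were past both cutoffs (Myh7 0.74 ± 0.28 and Ckm 0.58 ± 0.23 at 1 week, Ckm 0.53 ± 0.23 and Acta1 0.47 ± 0.22 at 3 weeks). The part of these cells in the members' values was not tested.

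Within groups, the members did not vary as 1 unit. Over the 12 libraries, each centred on its group mean, the median Pearson correlation of the 36 pairs of tested members was 0.37, and Spp1 with Gpnmb gave 0.33. Gpnmb was closest to Cd9 (0.84), Fabp5 (0.82) and Ctsk (0.69). Lgals3 (0.77) and Ctsk (0.78) were closest to the macrophage marker mean, while Gpnmb had 0.42 and Spp1 -0.34 with it. That mean varied most within 3wk SBI (SD 0.56 log2 units, beside 0.13 to 0.29 in the other groups). Replicate 3 of 3wk SBI stood at 5.00 log2 CPM beside 4.11 and 3.97. The correlations with the mean, with their signs, thus lean on that library and were not computed without it. All these correlations are descriptions of 12 libraries that share depth and composition, with 3 libraries behind each centre. Of 11623 genes with a mean of at least 1 CPM, those nearest to Spp1 were Ints15 (0.94), Rpusd3 (0.91), Dnajc13 (0.90), Ercc3 (0.88) and Cdc16 (0.88), and those nearest to Gpnmb were Hsd17b8 (0.92), Zfp282 (0.91), Chd1l (0.90), Slc6a9 (0.90) and Spint2 (0.89). These are the highest of 11623 correlations over 12 libraries, so they are high by selection. No gene stood in both lists of 5, but lists this short seldom share a gene, so no difference between Spp1 and Gpnmb is read from it.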

How the data were processed

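Polyadenylated RNA of pubocaudalis muscle was sequenced from a stranded library kit, 2 rats per pool. The authors deposited gene counts in 1 table: whole counts in the 1-week columns and, in the 3-week columns, estimated counts of which 26.6% to 44.0% have decimals. Neither is normalized. The submitters' processing notes name Salmon; its version and role, the build and the gene models are not given in the sources used here. The design assumed whole counts, and the 3-week values were rounded. Library totals were 10082734 to 75634391 counts. Counts of 3 or fewer were read as a limit (counting error only).

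All 12 libraries were fitted in edgeR 4.0.16 (R 4.3.3) with TMM scaling, filterByExpr (14599 genes), a robust quasi-likelihood test and Benjamini-Hochberg adjustment over all genes tested. Cutoffs were an adjusted p of 0.05 and an absolute log2 fold change of 1. Standard errors are the size of the fold change over the root of F. Log2 CPM used a prior count of 2. The fit was also run on simulated counts for genes with a mean of at least 1 CPM. That run did not cover transcripts as rare as Mmp12, a library that stands apart or the mix of count types. Alternatives were RLE scaling, no filter, DESeq2 1.42.0 (the tool of the study), the compared libraries alone, a replicate block, and each library left out. Replicate numbers did not pair the libraries.

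The members and the companion lists (receptors, lipid handling, Trem2 signaling, osteoclast, MiT/TFE, and marker lists of 10 cell types and states besides macrophages) were chosen with earlier results of these data known. Named were all members, 6 fixed partners, and per list and lactation contrast the 3 largest changes past both cutoffs, else the 2 with the smallest adjusted p. Some genes this rule names are not reported here. Likeness was taken from the 5 highest correlations. RefSeq promoters came from a GRCr8 table.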

Additional observations from a re-analysis of the deposited data

How the results depend on the processing

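With 3 pools of 2 rats per group, single pools and the choice of test moved the number of members past both cutoffs. Leaving out 1 library at a time gave 0 to 3 members at 1 week (3 with all libraries), 1 to 3 at 3 weeks (2), 2 to 3 for time without lactation (2), 0 to 1 for time with lactation (1) and 0 to 0 for the difference of the lactation effects (0). RLE scaling and no low-count filter gave the same member counts in all 5 comparisons. With edgeR on the compared libraries alone, 4 members were past at 3 weeks (Spp1 and Ctsk added) and 2 for time with lactation (Spp1 added), and DESeq2 on all 12 or on the compared libraries also gave 2 there. DESeq2 gave no adjusted p for Mmp12 at 3 weeks on the compared libraries. The companion genes past both cutoffs numbered 0 at 1 week and 3 at 3 weeks, 1 and 5 without the filter (Mmp9 added at 1 week), 10 and 13 with DESeq2, and 0 to 6 and 0 to 7 with 1 library left out. The cause was not tested.

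A replicate block was fitted although the replicate numbers did not pair the libraries: deviations of same-numbered libraries correlated at -0.23 to -0.0046, and no library was closest to its own number. With the replicate block, members past both cutoffs numbered 2 at 1 week (without Mmp12, log2 fold change -4.51), 2 at 3 weeks, 2 and 1 for time and 0 for the difference, and 1 companion gene (Cd68) was past at 3 weeks. All genes past both cutoffs fell from 37 to 8 at 1 week and from 108 to 64 at 3 weeks and went from 1 to 2 for the difference.

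Over all genes, the 37 at 1 week became 110 with edgeR on the compared libraries, 188 and 332 with DESeq2 on 12 and on the compared libraries, and 2 to 235 with 1 library left out. The 108 at 3 weeks became 246 and 172 with DESeq2 and 22 to 157 with 1 left out. For time without lactation 213 became 103 on the compared libraries and 61 to 554 with 1 left out. For time with lactation 113 became 191, 248 and 253, and 27 to 77, and for the difference 1 became 2 without the filter, 11 with DESeq2 and 1 to 5.

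A change of sign occurred only with a library left out and only for values that had not passed: Cd9 (-0.15 to 0.16 at 1 week, -0.067 to 0.34 at 3 weeks, -0.25 to 0.16 for time without lactation), Lgals3 (-0.31 to 0.041) and Cd63 (-0.095 to 0.043) at 3 weeks, Mmp12 for time with lactation (-3.33 to 3.33), and the differences of Cd9 (-0.040 to 0.37), Trem2 (-0.22 to 0.36) and Mmp12 (-4.41 to 2.26). Of 573 values of single members under alternatives, 532 kept direction and side of the cutoffs, 13 lost a call, 10 gained a call and 18 changed sign. Most of the 573 belong to values that had not passed in the main fit, so the 532 say little about how stable a call is. The median correlation of member pairs was 0.37 within groups and 0.70 when libraries were centred within time points, which leaves the difference between groups in. Depth (10082734 to 75634391 counts) limits Mmp12 and Atp6v0d2 most.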

Other observations

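All tested markers of T cells, dendritic cells and neutrophils had log2 fold changes below 0 with lactation at both times. Of these, 2 were past both cutoffs, both at 3 weeks, beside 0.740% of all genes in either direction and 0.534% lower. Neither was past them without replicate 3 of 3wk SBI. The summed level of 6 T cell genes was 2.86 to 4.84 CPM in 1wk SBI, 0.746 to 2.62 in 1wk SBI + Lac, 3.78 to 9.40 in 3wk SBI and 0.330 to 4.47 in 3wk SBI + Lac. Cd8b, a chain of the CD8 co-receptor, fell at 3 weeks (-2.48 ± 0.62, edgeR adjusted p = 0.0485) and had -2.03 ± 0.55 at 1 week (edgeR adjusted p = 0.0814), where Cd3e had -1.78 ± 1.07. The 5 dendritic cell genes had summed levels of 256 to 312 CPM in 1wk SBI, 165 to 235 in 1wk SBI + Lac, 237 to 441 in 3wk SBI and 156 to 259 in 3wk SBI + Lac. At 1 week all 5 were lower without overlap, beside 14.1% of all genes. At 3 weeks 1 of the 5 was, beside 10.4%. Flt3, a growth factor receptor of dendritic cell precursors, fell at 3 weeks (-1.54 ± 0.37, edgeR adjusted p = 0.0408) and had -0.82 ± 0.33 at 1 week (edgeR adjusted p = 0.191), and Ccr7, a homing receptor, had -2.16 ± 0.72 at 1 week (edgeR adjusted p = 0.128). The 2 tested neutrophil genes, Csf3r (-0.64 and -1.14) and Cxcr2 (-1.12 and -0.26), did not pass at 1 week or 3 weeks.

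Vessel, fat and nerve markers were past the cutoffs in neither lactation contrast (edgeR, 0 of 14 tested genes). The shares of all genes were 0.253% at 1 week and 0.740% at 3 weeks. The endothelial gene Tie1 had log2 fold changes of -0.30 ± 0.14 at 1 week and -0.55 ± 0.14 at 3 weeks (edgeR adjusted p = 0.266 and 0.0596), with Kdr at -0.20 ± 0.19 at 1 week and Cdh5 at -0.34 ± 0.14 at 3 weeks. The fat genes Cidec (-0.96 ± 0.74 and 1.61 ± 0.76), Adipoq (-0.79 ± 0.67 at 1 week) and Fabp4 (-0.24 ± 0.13 at 3 weeks) and the Schwann cell gene S100b (-0.34 ± 0.32 at 1 week) did not pass.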
